A study of Homo sapiens with 10 samples.

Results

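Collagens, laminins and integrins were followed here in spheroids, which are free-floating clusters of cells, of cells labelled as a breast cancer line, with and without SAMHD1, the dNTP triphosphohydrolase that lowers the cell's supply of DNA building blocks. The members were all listed genes whose symbols mark a collagen chain, a laminin chain or an integrin subunit, together with FN1, NID1, NID2, HSPG2, AGRN and DAG1. They came to 64 of 13920 genes, of which 29 encode collagens, 10 laminins, 19 integrins and 6 other matrix proteins or dystroglycan. The other 24 protein-coding genes that the rule would take, such as COL1A2, COL6A3 and ITGB2, had no row in the table and were not analysed here. RNA was sequenced from 4 WT libraries (experiments 10, 11, 15 and 16), 4 libraries of the knockout clone A1 (the same experiments) and 2 of the knockout clone A2 (experiments 15 and 16). Both knockouts were made with CRISPR-Cas9 guides to exon 5 of SAMHD1, and each is a single clone, so that what the knockout did and what sets a clone apart cannot be told apart.

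A basement membrane is the thin sheet of matrix under an epithelium. Laminins, each a trimer of an alpha, a beta and a gamma chain, polymerise next to the cell surface, and type IV collagen trimers form a second network that nidogens and perlecan (HSPG2) tie to the laminin one. Fibrillar collagens give tensile strength to the stroma, and fibril-associated collagens decorate those fibrils. Integrins are alpha-beta receptors that bind these ligands and connect them to actin, and the alpha subunit largely sets whether collagen, laminin or the RGD motif of fibronectin is bound. In breast tissue the stroma makes most fibrillar collagen, while epithelial cells make much of their own basement membrane and carry the laminin receptors.

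The libraries held 40077369 to 51311482 counts, and the members took 0.329% to 0.360% of them in each library. Levels are given in CPM, each count relative to the scaled total of its library. SAMHD1 RNA was at 49.8 to 56.4 CPM in WT, at 22.5 and 23.0 CPM in clone A1 of experiments 10 and 11, at 6.44 and 6.15 CPM in clone A1 of experiments 15 and 16, and at 23.6 and 20.2 CPM in clone A2. SAMHD1 thus followed the labels, with a lower level in clone A1 of the later experiments than in either of the other knockout sets.

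The labels name the cells T47D, a luminal, hormone receptor-positive breast cancer line, and several of its defining luminal markers were low in all 10 libraries. The oestrogen receptor gene ESR1 was at 0.183 to 1.59 CPM, the epithelial adhesion genes EPCAM at 0.348 to 1.78 CPM and CDH1 at 0.684 to 2.16 CPM, and the keratin gene KRT8 at 3.10 to 9.07 CPM. VIM, a mesenchymal intermediate filament gene, was at 1175 to 1518 CPM. Of the 11 luminal markers 9 were listed, and the other 5 were at clear levels, with XBP1 at 40.7 to 65.3, KRT18 at 36.3 to 60.3, GATA3 at 15.4 to 24.8, FOXA1 at 14.1 to 26.8 and PGR at 15.4 to 20.7 CPM. Their summed level was 165 to 176 CPM in WT, 154 to 172 CPM in clone A1 and 146 to 147 CPM in clone A2, and its part in the results was not tested. Against WT of the same experiments KRT8 was called lower (-0.70 and -0.97 on the log2 scale in clones A1 and A2) and FOXA1 higher (0.47 and 0.32). The groups are therefore named by clone and experiment, and the values below describe these libraries rather than a line known to be T47D. Of the other cell type markers, 3 of 10 fibroblast (1182 to 1521 CPM in sum, nearly all of it VIM), 2 of 6 endothelial (0.975 to 1.92 CPM), 3 of 10 leukocyte (2.60 to 3.71 CPM) and 1 of 7 myoepithelial markers (ACTA2, 22.2 to 59.2 CPM) were listed. ACTA2 moved with the groups, at 38.4 and 59.2 CPM in WT of experiments 10 and 11, 31.2 and 28.7 CPM in WT of experiments 15 and 16, and in the latter 25.1 and 22.2 CPM in clone A1 and 27.02 and 27.27 CPM in clone A2. The fibroblast sum was 1291 and 1223 CPM in that WT pair and 1207 and 1182 CPM in clone A2, and the part of either in the results was not tested. Mitochondrial genes took 7.79% to 13.9% of counts, the highest share in clone A1 of experiment 15. In bulk RNA, fewer cells of a type and less RNA per cell cannot be told apart.

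Many of the most abundant RNAs among members were those of basement membrane and receptor chains, with COL6A1 and FN1 beside them. Compared per kilobase of transcript, so that genes of unlike length could be ranked, ITGB1, the beta chain shared by most matrix-binding integrins, stood first at 104 CPM per kilobase in WT. COL6A1 followed at 43.4, COL4A2 at 36.7, LAMC1 at 35.8 and NID1, which links laminin to type IV collagen, at 33.1 CPM per kilobase. COL18A1, whose fragment is endostatin, was at 25.9, the laminin receptor gene DAG1 at 24.5, LAMB1 at 22.6, FN1 at 21.3 and LAMB2 at 19.1 CPM per kilobase. The leading alpha subunits were lower, with ITGA5, the fibronectin receptor, at 11.5, ITGAV at 8.88 and ITGA4 at 6.01, and the beta subunits after ITGB1 were ITGB5 at 8.22 and ITGB8 at 1.49 CPM per kilobase. At the other end ITGA11, ITGA10, ITGB3, ITGB4 and LAMB3 lay below 0.25 CPM per kilobase, and each of these 5 genes had under 30 counts in at least 1 library.

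**Figure D1:**
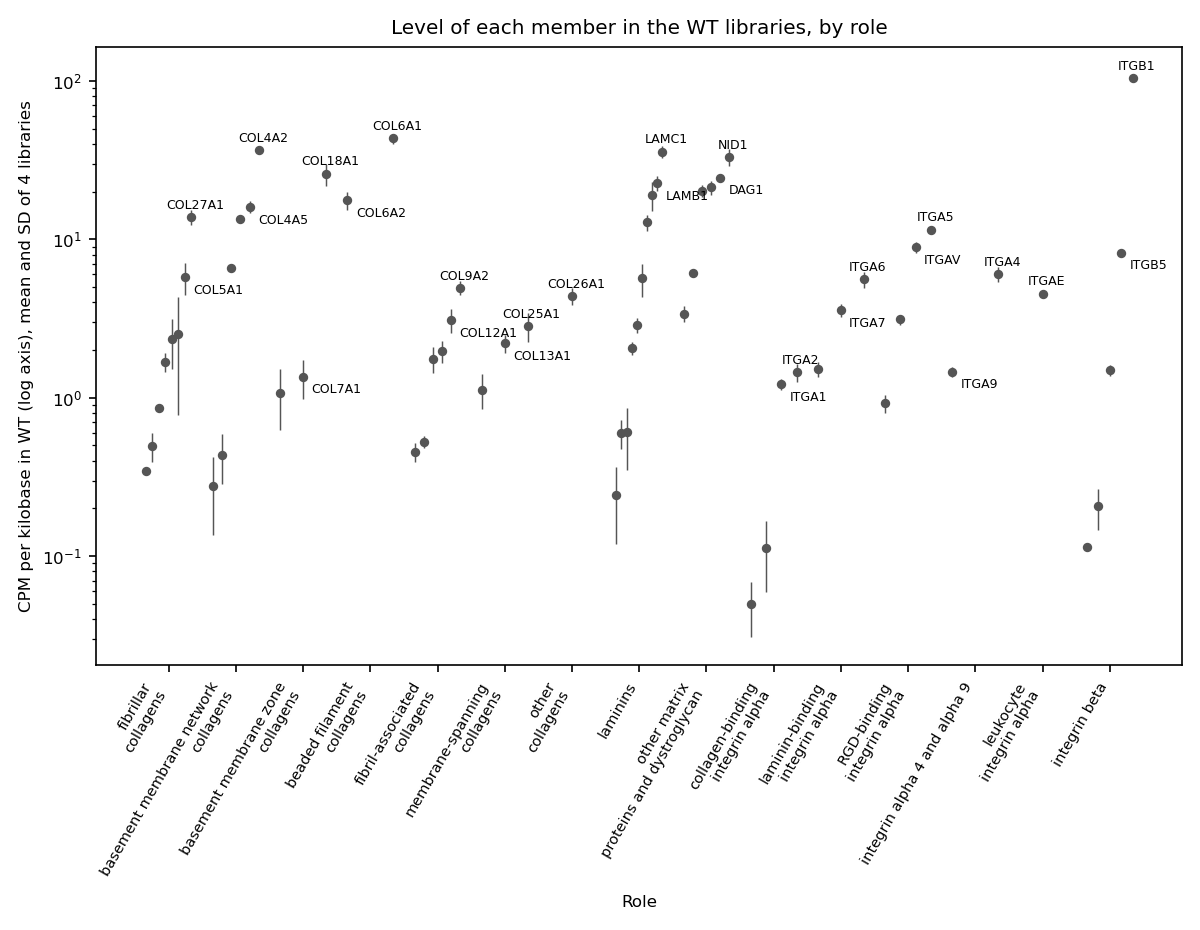
Level of each of the 64 members in WT, in CPM per kilobase on a log axis, in columns by role; points are means and bars SDs of the 4 WT libraries. ITGB1 stands above all others at 104 CPM per kilobase, and ITGA10, ITGA11, ITGB3 and ITGB4 are lowest among the integrins.

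The summed level of each family moved little between libraries. All collagens together lay between 1126 and 1281 CPM (32.7% to 37.0% of the members' total), all laminins between 730 and 815 CPM and all integrins between 673 and 793 CPM, with overlapping ranges of WT and knockout libraries over both experiment pairs. In experiments 15 and 16 alone, integrins summed to 711 and 746 CPM in WT, 772 and 793 in clone A1 and 702 and 722 in clone A2, and laminins to 735 and 753, 730 and 770, and 783 and 770 CPM. The differences described next were in single chains.

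**Figure D2:**
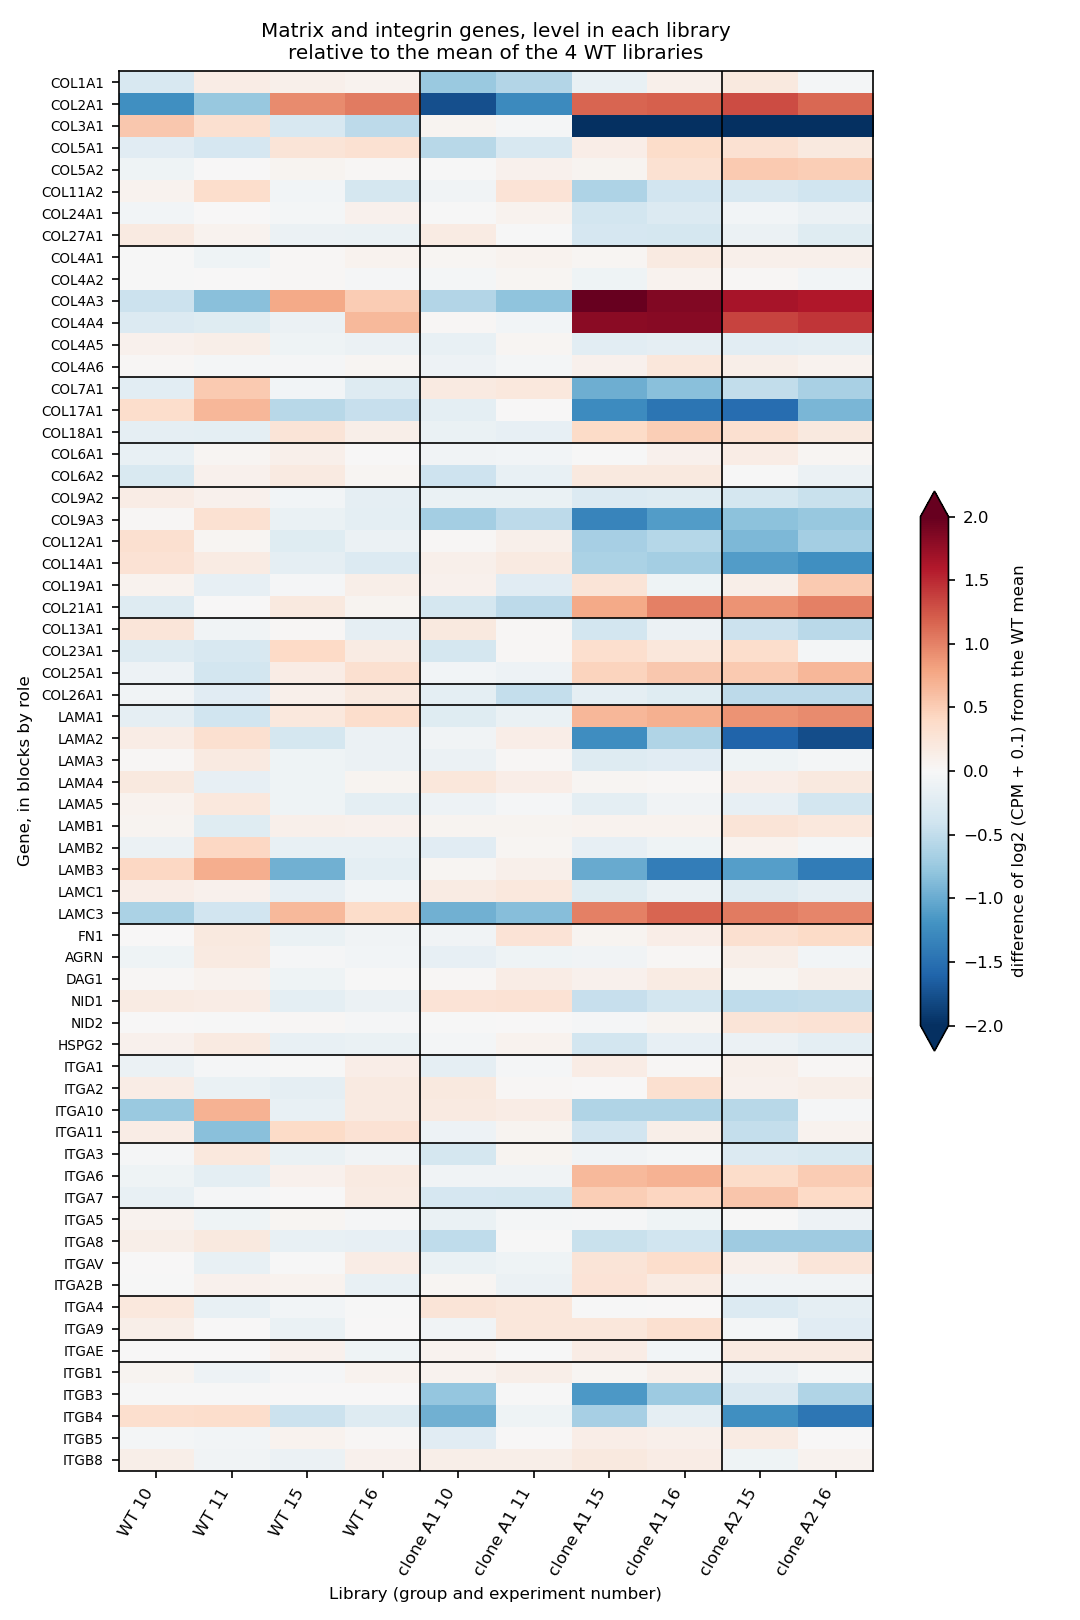
Difference of log2 (CPM + 0.1) from the mean of the 4 WT libraries, for 64 members (rows, in blocks by role) and 10 libraries (columns). COL4A3 and COL4A4 are red and COL3A1 blue in clones A1 and A2 of experiments 15 and 16, while COL2A1 is blue in both groups of experiments 10 and 11 and red in the others.

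To ask what the knockout clones changed, each clone was compared with WT of the same experiments (15 and 16, 2 libraries a group) in 1 edgeR fit over all 10 libraries, with p-values adjusted over all 13920 genes. In clone A1 16 of 64 members were called at an adjusted p under 0.05, 8 higher and 8 lower, where 3.95% of all genes were called higher and 4.29% lower. In clone A2 20 were called, 10 higher and 10 lower, against 7.33% higher and 9.07% lower of all genes. The median log2 fold change of the members was 0.01 in clone A1 and -0.02 in clone A2, and that of all genes 0.00 and 0.01. Both comparisons share the WT libraries, so their values are given side by side and their likeness is not counted. Without either WT library, or without either library of the clone, 6 to 7 members were called in clone A1 and 12 to 13 in clone A2, the lone library then being assumed to vary like the other groups. The calls over all genes fell as well, in clone A1 from 1147 to between 343 and 495 and in clone A2 from 2283 to between 1020 and 1315. The calls that stood with each of the 10 libraries left out in turn were those of COL3A1, COL4A3, COL4A4, COL9A3 and ITGA6 in clone A1 and of COL3A1, COL4A3, COL4A4, COL12A1, COL14A1, COL26A1, LAMA1, LAMA2, FN1 and NID1 in clone A2. Each other call was lost without at least 1 library of WT or of the clone. When the experiment pairs were ignored and the 3 groups compared over all libraries, 0 members were called in clone A1 (and 0 of all genes) and 2 in clone A2 (LAMA2 and NID2, beside 308 of all genes).

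**Figure D3:**
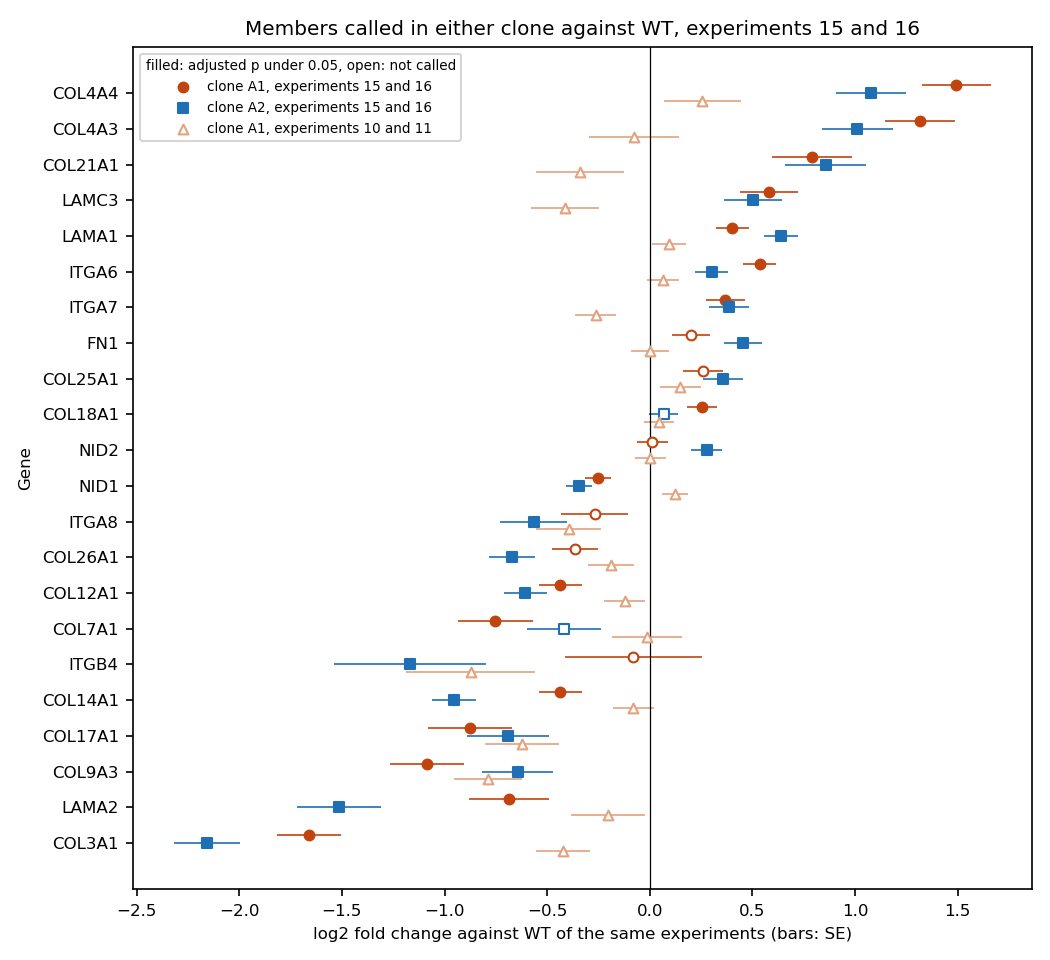
Log2 fold change against WT of the same experiments, with SE, of the 22 members called in clone A1 or clone A2 of experiments 15 and 16. Filled symbols passed an adjusted p of 0.05; all values of clone A1 in experiments 10 and 11 are open, and COL4A4 and COL3A1 mark the ends of the range.

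The largest rises were in COL4A3 and COL4A4, the chains that with COL4A5 make the type IV collagen of the kidney filter, lung and inner ear and that are mutated in Alport syndrome. The 6 type IV genes lie in head-to-head pairs whose starts are close together and whose transcripts run apart, so that the stretch between them serves as promoter for both. In RefSeq on GRCh38.p14, COL4A4 and COL4A3 start 135 bases apart on chromosome 2 and COL4A1 and COL4A2 126 bases apart on chromosome 13, while COL4A6 and COL4A5 lie 379 bases apart on the X chromosome. The first of these stretches is shown because its genes rose, and the second because its genes, the common type IV chains, did not pass the test. Both are given on the plus strand, from chr2:227164489-227164623 and chr13:110307158-110307283, and lie between the annotated starts, outside both genes. Capitals mark CCAAT and GGGCGG on either strand.
COL4A4/COL4A3: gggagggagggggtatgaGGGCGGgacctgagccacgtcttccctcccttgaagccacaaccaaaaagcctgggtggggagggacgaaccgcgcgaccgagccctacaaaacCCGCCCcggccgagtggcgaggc
COL4A1/COL4A2: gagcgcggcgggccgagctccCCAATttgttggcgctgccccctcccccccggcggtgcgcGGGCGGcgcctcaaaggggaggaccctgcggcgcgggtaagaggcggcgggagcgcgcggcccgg
The COL4A4/COL4A3 stretch was 68.1% G or C and held GGGCGG 2 times and CCAAT and TATAAA 0 times, and the COL4A1/COL4A2 stretch was 80.2% G or C and held GGGCGG and CCAAT 1 time each and TATAAA 0 times. GGGCGG on either strand occurs in 35.5% and CCAAT in 22.1% of the 35116 promoters in the table, counted in the 135 bases before each start, and TATAAA in 6.13%. These matches describe the letters alone.

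COL4A3 was at 3.48 and 2.92 CPM in WT of experiments 15 and 16, at 8.38 and 7.50 CPM in clone A1 and at 6.57 and 6.31 CPM in clone A2. Every knockout library of this pair lay above both WT libraries, by 1.32 ± 0.17 (SE) on the log2 scale in clone A1 (adjusted p 0.000191) and 1.01 ± 0.17 in clone A2 (0.00071). COL4A4 was at 3.86 and 6.65 CPM in WT, at 14.9 and 15.1 CPM in clone A1 and at 10.9 and 11.5 CPM in clone A2. Its rise was 1.49 ± 0.17 in clone A1 (adjusted p 6.25e-05) and 1.08 ± 0.17 in clone A2 (0.000426), and it held although the WT library of experiment 16 stood apart from the other 3 WT libraries. The genes are neighbours on chromosome 2 (COL4A4, NCBI gene 1286, chr2:226967360-227164488, minus strand, and COL4A3, NCBI gene 1285, chr2:227164624-227314792, plus strand).

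The other 4 type IV chains gave a different picture. COL4A1 spanned 82.3 to 99.3 CPM and COL4A2 223 to 247 CPM over all 10 libraries, with overlapping ranges in WT and knockout libraries. The fold change of COL4A1 in clone A1 was 0.06 on the log2 scale (95% interval -0.09 to 0.21) and that of COL4A2 0.00 (-0.14 to 0.14), and in clone A2 they were 0.06 (-0.09 to 0.21) and -0.01 (-0.16 to 0.13). COL4A5, the partner of COL4A3 and COL4A4 in their trimer, was at -0.09 (-0.24 to 0.07) in clone A1 and -0.10 (-0.25 to 0.05) in clone A2. COL4A6 was at 0.16 (0.00 to 0.31) and 0.09 (-0.07 to 0.25). The rises started from low levels: per kilobase, COL4A3 went from 0.398 CPM in WT of this pair to 0.988 in clone A1 and 0.801 in clone A2, and COL4A4 from 0.526 to 1.50 and 1.12, while COL4A5 was at 14.8, 14.0 and 13.8 and COL4A1 at 13.9, 14.5 and 14.5.

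**Figure D4:**
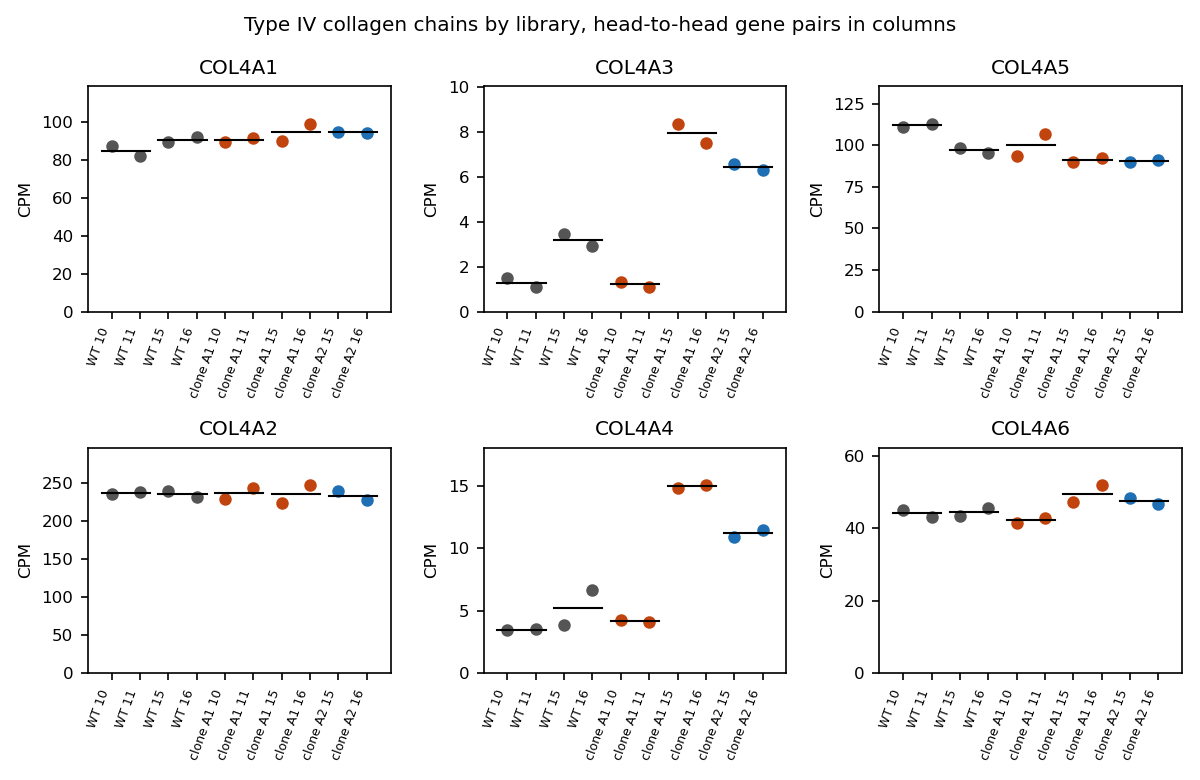
CPM of the 6 type IV collagen chains in each of the 10 libraries (grey WT, red-brown clone A1, blue clone A2), with head-to-head partners in 1 column and black lines for the mean of each group in each experiment pair. In COL4A3 and COL4A4 the knockout libraries of experiments 15 and 16 lie above the other 6, and COL4A1 and COL4A2 stay between 82.3 and 99.3 and between 223 and 247 CPM.

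Of the 8 listed fibrillar collagens COL3A1 alone was called in the fit of all 10 libraries (12.5%), and it fell in both clones. Of all genes 8.24% were called in clone A1 and 16.4% in clone A2. COL3A1 (NCBI gene 1281, chr2:188974373-189012746, plus strand), the homotrimeric type III collagen of stretchable tissues, was at 9.75 and 8.46 CPM in WT, at 2.76 and 2.98 CPM in clone A1 and at 1.66 and 2.38 CPM in clone A2. The change was -1.66 ± 0.15 in clone A1 (adjusted p 6.8e-06) and -2.16 ± 0.16 in clone A2 (3.6e-07), the largest fall among the members in each. COL1A1 was at 10.6 and 10.4 CPM in WT, 8.96 and 10.7 in clone A1 and 11.4 and 9.66 in clone A2, without separation. COL27A1 stood at -0.22 ± 0.07 in clone A1 (adjusted p 0.0834, 0.00865 when experiments were blocked, 0.0322 from the libraries of the pair alone).

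Of the 6 listed fibril-associated collagens 4 were called in each clone (66.7%), 1 higher and 3 lower, where 8.24% of all genes were called in clone A1 and 16.4% in clone A2. COL14A1, which binds fibril surfaces, was at 12.3 and 11.4 CPM in WT, 8.91 and 8.58 CPM in clone A1 and 6.35 and 5.86 CPM in clone A2. It fell by 0.43 on the log2 scale in clone A1 (SE 0.10, adjusted p 0.0169) and by 0.96 in clone A2 (SE 0.11, adjusted p 2.21e-05), and the groups did not overlap. COL12A1 was at 30.2 and 33.0 CPM in WT, 22.7 and 24.1 in clone A1 and 19.2 and 22.4 in clone A2, with changes of -0.44 ± 0.10 and -0.61 ± 0.10. COL9A3, a chain of the cartilage-type collagen IX, was at 4.44 and 4.27 CPM in WT, 1.90 and 2.20 CPM in clone A1 and 2.71 and 2.85 CPM in clone A2, with changes of -1.08 ± 0.18 and -0.64 ± 0.17. COL21A1 went the other way, from 2.17 and 1.97 CPM in WT to 3.24 and 3.90 in clone A1 and 3.59 and 3.89 in clone A2, with changes of 0.79 ± 0.20 and 0.86 ± 0.20. In each of these 4 genes the clones and WT of this pair did not overlap. Here and for the other members, such separation within the pair was not counted over all genes and is no support beside the test.

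COL9A3 was also the only member whose 6 knockout libraries did not overlap the 4 WT libraries. WT lay at 4.27 to 6.04 CPM and the knockouts at 1.90 to 3.35 CPM, with 3.03 and 3.35 CPM in clone A1 of experiments 10 and 11. Over all genes 0.862% were lower without overlap and 0.647% higher, and among members 1 of 64 was lower and 0 higher.

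In the basement membrane zone, COL17A1, the transmembrane collagen of hemidesmosomes, was at 3.81 and 4.09 CPM in WT, 2.31 and 2.00 CPM in clone A1 and 1.91 and 2.97 CPM in clone A2. It fell by 0.88 on the log2 scale in clone A1 (SE 0.21, adjusted p 0.0145) and by 0.69 in clone A2 (SE 0.20, adjusted p 0.0266), the latter being -1.05 to -0.41 with 1 library left out and called in 7 of those 10 fits. COL7A1, which forms the anchoring fibrils below the basement membrane, was at 11.7 and 10.2 CPM in WT, 6.17 and 6.82 in clone A1 and 8.63 and 7.75 in clone A2, with a called change of -0.75 ± 0.18 in clone A1 and -0.42 ± 0.18 in clone A2 (adjusted p 0.132, and 0.0434 once the experiment number was a block). COL18A1 rose in clone A1 from 166 and 151 CPM to 182 and 196 CPM (0.25 ± 0.07, adjusted p 0.0368), a call lost without any of 6 single libraries, and was at 173 and 159 CPM in clone A2. Of the remaining collagens COL26A1 was called lower in clone A2 (-0.67 ± 0.11) and stood at -0.37 ± 0.11 in clone A1 (adjusted p 0.0541, 0.0109 with the block). COL25A1 was called higher in clone A2 (0.36 ± 0.10) and stood at 0.26 ± 0.10 in clone A1 (adjusted p 0.119, 0.0176 with the block). The block also brought calls of COL13A1 (-0.40), COL9A2 (-0.29) and COL6A2 (-0.17), all lower in clone A2, and of ITGA9, higher in clone A1 (0.34).

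Of 10 laminin chains 3 were called in each clone (30%), LAMA1 and LAMC3 higher and LAMA2 lower. Of all genes 8.24% were called in clone A1 and 16.4% in clone A2. LAMA1 (NCBI gene 284217, chromosome 18), the alpha chain of the laminin of early embryonic basement membranes, was at 62.1 and 68.6 CPM in WT, 85.0 and 87.9 CPM in clone A1 and 100.2 and 103.7 CPM in clone A2. It rose by 0.40 ± 0.08 in clone A1 (adjusted p 0.00591) and 0.64 ± 0.08 in clone A2 (6.46e-05), and the 3 groups did not overlap. LAMA2 (NCBI gene 3908, chromosome 6), the muscle and nerve alpha chain, was at 4.46 and 5.26 CPM in WT, 2.35 and 3.72 CPM in clone A1 and 1.82 and 1.60 CPM in clone A2, again without overlap, with changes of -0.68 ± 0.20 (adjusted p 0.0396) and -1.51 ± 0.21 (0.000124). The call of LAMA2 in clone A1 was lost without any of 5 single libraries, with values from -1.05 to -0.39. LAMC3 was at 6.65 and 5.48 CPM in WT, 8.57 and 9.55 in clone A1 and 8.75 and 8.40 in clone A2, with changes of 0.58 ± 0.14 and 0.50 ± 0.14. Relative to its chromosomal neighbours LAMC3 was not called in either clone (0.40, adjusted p 0.0979, and 0.20, 0.377). The abundant chains LAMC1 (-0.08, 95% interval -0.22 to 0.06, in clone A1 and -0.11, -0.25 to 0.03, in clone A2), LAMB1 and LAMB2 were not called in either clone.

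Of the 6 other matrix genes FN1 and NID2 were called higher in clone A2 and NID1 lower in both. These are 16.7% in clone A1 and 50% in clone A2, against 8.24% and 16.4% of all genes. The calls of NID1 were lost once the change of its chromosomal neighbours was taken out (adjusted p 0.963 and 0.962). FN1, fibronectin, was at 163 and 169 CPM in WT, 185 and 196 CPM in clone A1 and 223 and 231 CPM in clone A2. Its change was 0.45 ± 0.09 in clone A2 (adjusted p 0.00293) and 0.20 ± 0.09 in clone A1 (adjusted p 0.207, 0.0110 with the block). NID1 was at 166 and 175 CPM in WT, 139 and 147 CPM in clone A1 and 134 and 135 CPM in clone A2, with changes of -0.25 ± 0.06 and -0.34 ± 0.06. NID2, its paralog, was at 30.4 and 29.3 CPM in WT, 29.3 and 31.0 CPM in clone A1 and 35.7 and 36.7 CPM in clone A2 (0.01 ± 0.08 and 0.28 ± 0.07). DAG1, which binds laminins outside the integrin system, stood at 0.17 ± 0.07 in clone A1 (adjusted p 0.146, 0.0285 with the block) and 0.12 ± 0.07 in clone A2.

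Among the 19 integrin genes 2 were called in clone A1 (10.5%, against 8.24% of all genes) and 4 in clone A2 (21.1%, against 16.4%), among them in both 2 of the 3 laminin-binding alpha subunits. ITGA6 (NCBI gene 3655, chr2:172427336-172506459, plus strand), the laminin receptor alpha chain that pairs with ITGB1 or ITGB4, was at 34.5 and 36.7 CPM in WT, 50.7 and 52.5 CPM in clone A1 and 41.8 and 45.9 CPM in clone A2, in 3 ranges without overlap. It rose by 0.54 ± 0.08 in clone A1 (adjusted p 0.000532) and 0.30 ± 0.08 in clone A2 (0.0152). ITGA7, a laminin receptor best known in muscle, was at 14.7 and 16.4 CPM in WT, 20.6 and 19.7 CPM in clone A1 and 21.5 and 19.3 CPM in clone A2, with changes of 0.37 ± 0.10 and 0.39 ± 0.10. The third, ITGA3, was at 6.70 and 7.06 CPM in WT and between 5.97 and 7.18 CPM in the clones.

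No collagen-binding alpha subunit was called in either clone. Of the RGD-binding ones ITGA8 was lower in clone A2 (3.63 and 3.63 CPM against 5.39 and 5.36 in WT, -0.57 ± 0.16), and ITGA5 was not called in either. ITGAV stood at 0.23 ± 0.08 in clone A1 (adjusted p 0.0858, 0.00889 with the block) and 0.10 ± 0.08 in clone A2. The shared beta chain ITGB1 was at 382 and 404 CPM in WT, 398 and 416 CPM in clone A1 and 357 and 375 CPM in clone A2, with changes of 0.05 (95% interval -0.09 to 0.19) and -0.10 (-0.24 to 0.04). ITGB4, the hemidesmosome partner of ITGA6, was scarce, at 0.86 and 0.97 CPM in WT, 0.71 and 1.03 in clone A1 and 0.45 and 0.37 in clone A2, and was called lower in clone A2 alone (-1.17 ± 0.37, adjusted p 0.0398). That call rested on libraries with as few as 19 counts and was lost without any of 4 single libraries.

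Each member was also set beside the median change of the genes within 10 Mb of it. That median lay beyond 0.15 on the log2 scale for 9 members in clone A1 and 8 in clone A2. NID1, on the long arm of chromosome 1, had neighbours with medians of -0.26 in clone A1 and -0.33 in clone A2, and with these taken out as an offset its own change was 0.01 (adjusted p 0.963) and -0.01 (0.962). LAMC3 on chromosome 9 lay among neighbours at 0.18 and 0.30. COL17A1 in clone A2 went to -0.47 (0.151), COL25A1 in clone A2 to 0.22 (0.108) and ITGB4 in clone A2 to -1.10 (0.0691). COL5A1, near LAMC3, was flat beside neighbours at 0.21 and 0.32 and was called lower in clone A2 with the offset, as were COL27A1 in clone A1 and, in the higher direction, LAMB1 in clone A2. COL4A3, COL4A4, COL3A1, COL9A3, COL12A1, COL14A1, COL21A1, LAMA1, LAMA2, ITGA6 and ITGA7 lay among neighbours with medians between -0.03 and 0.07 and kept their calls in both clones with the offset. With the offset 15 and 17 members were called, against 5.27% and 9.83% of all genes in either direction.

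**Figure D5:**
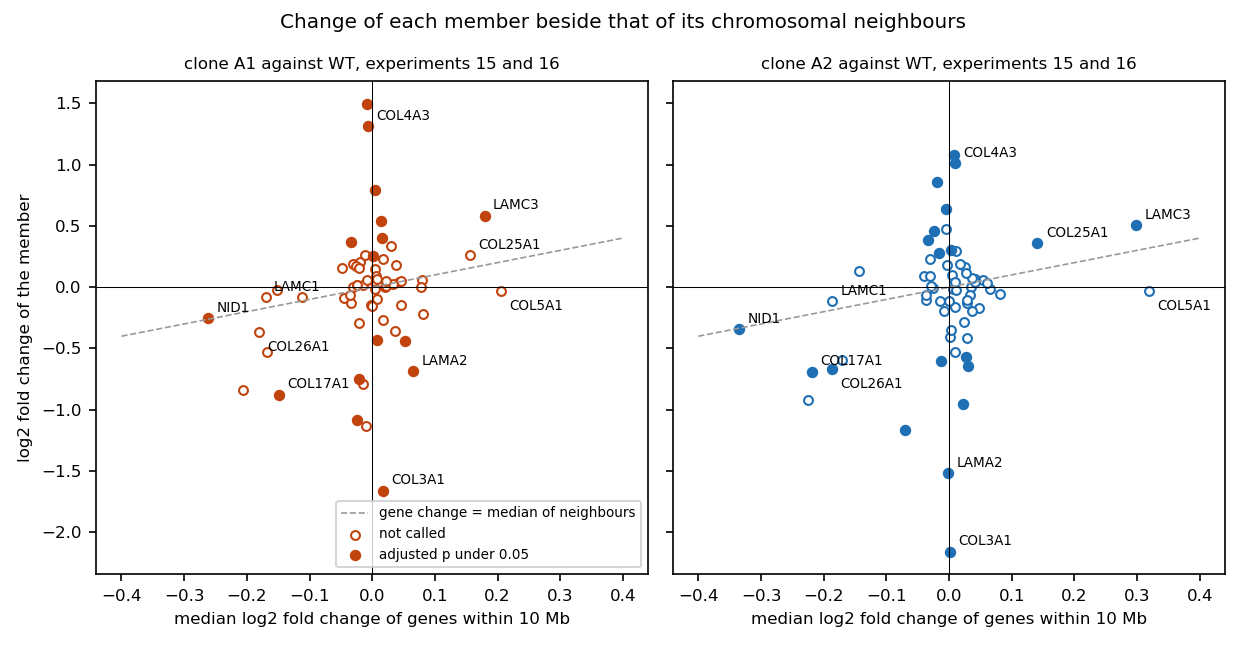
Log2 fold change of each member (vertical) against the median log2 fold change of the genes within 10 Mb of it (horizontal), in the 2 clones, each against WT of experiments 15 and 16; filled points passed an adjusted p of 0.05. NID1 lies on the dashed line where both are equal, while COL4A3 lies far above it and COL3A1 far below it, with neighbours near 0.

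The clones differed from each other in COL14A1 and LAMA2. Of 64 members 0 were called higher and 2 lower in clone A2 than in clone A1, against 1.07% higher and 3.07% lower of all genes, and 18 were at an unadjusted p under 0.05, as were 2249 of all 13920 genes. COL14A1 was lower in clone A2 by 0.52 on the log2 scale (SE 0.11, adjusted p 0.00848) and LAMA2 by 0.83 (SE 0.21, adjusted p 0.0357), which with the regional offset was -0.77 (0.0767) and with 1 library left out lay between -1.12 and -0.46. With the experiment number as a block 9 were called, against 8.71% of all genes, with COL6A2, COL18A1, ITGA6 and ITGA9 lower and FN1, LAMA1 and NID2 higher beside these. Without WT of experiment 10 or 11, neither of which is in this comparison, 7 and 6 were called, with 957 and 959 of all genes in place of 576. Without any 1 of the 6 clone libraries fewer members were called, and fewer of all genes as well. The rise of COL4A4 was 0.42 lower in clone A2 than in clone A1 and that of COL4A3 0.30 lower, and neither passed.

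Clone A1 was also compared with WT in experiments 10 and 11, where clone A2 was not grown. Of 64 members 0 were called in either direction by edgeR, against 0.0287% higher and 0.165% lower of all genes, with 12 members and 1476 of all genes at an unadjusted p under 0.05. DESeq2 called 1, COL9A3 (-0.79, adjusted p 0.0298). The block gave 5 calls, against 2.74% of all genes, all lower, namely COL9A3 (-0.78), COL17A1 (-0.62), COL1A1 (-0.59), COL2A1 (-0.53) and LAMB2 (-0.24). Without WT of experiment 10, which leaves that group with 1 library, 11 were called, and 1361 of all 13920 genes in place of 27. COL1A1 was at 7.94 and 11.04 CPM in WT and 5.91 and 6.57 CPM in clone A1, and COL3A1 at 17.9 and 15.3 against 12.7 and 12.0 CPM (-0.42 ± 0.13, adjusted p 0.32). COL4A3 was at 1.47 and 1.08 CPM in WT and 1.31 and 1.11 CPM in clone A1, and COL4A4 at 3.45 and 3.53 against 4.27 and 4.07 CPM.

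Whether clone A1 differed from WT by another amount in the later experiments was tested as an interaction of clone and experiment pair. Of 64 members 5 were called in the higher and 2 in the lower direction, against 1.56% and 0.941% of all genes. The difference of the differences was 1.39 ± 0.28 for COL4A3 (adjusted p 0.0131), 1.24 ± 0.25 for COL4A4 (0.0162), 1.00 ± 0.22 for LAMC3 (0.0215), 0.63 ± 0.14 for ITGA7 (0.0225) and 0.47 ± 0.11 for ITGA6 (0.0347). It was -1.24 ± 0.20 for COL3A1 (0.00387) and -0.38 ± 0.09 for NID1 (0.0335). For SAMHD1 itself it was -1.81 ± 0.14 (adjusted p 1.2e-06). The block raised the count to 12, against 8.96% of all genes, and with the regional offset NID1 went to -0.06 (0.795) and LAMC3 to 0.77 (0.0708). COL3A1 was called with each library left out, whereas the calls of COL4A3, COL4A4, ITGA6, ITGA7, LAMC3 and NID1 were each lost in 3 to 8 of those 10 fits. The count was 1 without clone A1 of experiment 11 or of experiment 15, and 15 without WT of experiment 10. Without clone A1 of experiment 11, 159 of all genes were called in place of 348, and without WT of experiment 10, 1123.

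WT itself differed between the experiment pairs. In WT of experiments 15 and 16 against WT of experiments 10 and 11, 9 of 64 members were higher and 10 lower, against 8.61% and 7.74% of all genes. In clone A1 the same comparison called 16 higher and 14 lower, against 20.4% and 19.0%. What differed between the pairs beside the experiment number is not given in the labels, so date, passage and handling cannot be told apart. The mitochondrial share moved with the pair, from 7.79% to 8.48% of counts in experiments 10 and 11 to 9.05% to 13.9% in experiments 15 and 16, and its part in these differences was not tested. COL2A1, the cartilage fibrillar collagen, changed most in WT, from 4.29 and 6.04 CPM to 19.8 and 21.2 CPM (1.99 ± 0.15), and in clone A1 from 2.96 and 4.18 CPM to 23.1 and 23.6 CPM (2.71 ± 0.15). It was at 25.5 and 22.7 CPM in clone A2.

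In WT the later pair was higher for COL4A3 (1.32 ± 0.20), LAMC3 (1.05 ± 0.15), COL4A4 (0.61 ± 0.19), LAMA1 (0.57 ± 0.08) and COL5A1 (0.57 ± 0.09), and lower for LAMB3 (-1.20 ± 0.33), COL17A1 (-1.04 ± 0.19), COL3A1 (-0.87 ± 0.13), COL14A1 (-0.45 ± 0.10) and COL12A1 (-0.37 ± 0.10). The values in clone A1 were 2.71, 2.04, 1.84, 0.88 and 0.68 for the first 5 and -1.49, -1.30, -2.10, -0.81 and -0.68 for the others. In WT the value of COL4A4 ranged from 0.14 to 0.93 with 1 library left out and was called in 3 of those 10 fits, that of LAMB3 from -1.76 to -0.86 (called in 8) and that of COL12A1 from -0.51 to -0.22 (called in 7). COL5A1 lay among neighbours with medians of 0.20 in WT and 0.46 in clone A1, and with these as an offset it stood at 0.36 (adjusted p 0.0189) and 0.23 (0.0718). The comparisons of the clones with WT in the later pair use these same WT libraries. Further calls in clone A1 were COL21A1 (1.38 ± 0.20), COL7A1 (-1.11 ± 0.18) and LAMA2 (-0.95 ± 0.19). Among integrins 1 was called in WT (ITGA6, 0.28 ± 0.08, adjusted p 0.0261, and 0.0775 with the regional offset). In clone A1 4 were called (ITGA7, ITGA6, ITGAV and ITGB5, at 0.81, 0.75, 0.41 and 0.23). These are 5.26% of the integrins in WT and 21.1% in clone A1, where 16.4% and 39.4% of all genes were called. ITGB5 was called in 4 of 10 fits with 1 library left out, at 0.11 to 0.35, and not by DESeq2, with RLE normalization or with the regional offset. Fewer members were called in WT without WT of experiment 15 or 16, and more without WT of experiment 10. The calls over all genes moved the same way in these fits.

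The genes that act on this matrix were counted from 5 lists. The first holds the focal adhesion proteins that join integrins to actin, of which 32 were listed. In clone A1 0 of them were called higher and 1 lower, and in clone A2 0 and 6, the median log2 fold change being -0.02 and -0.04. These are 3.13% and 18.8% of the list, where 8.24% of all genes were called in clone A1 and 16.4% in clone A2. The shares of the other lists are to be read against the same values. With the experiment number as a block the counts were 0 and 4 in clone A1 and 2 and 8 in clone A2. Of all 13920 genes the block called 2411 and 3673, against which the block counts of the other lists are to be read. FLNA, the actin crosslinker filamin A, fell from 675 and 687 CPM in WT to 514 and 591 CPM in clone A1 and 558 and 512 CPM in clone A2 (-0.30 ± 0.08 and -0.35 ± 0.08). The scaffold genes LIMS2 (-0.73 ± 0.21) and PARVB (-0.50 ± 0.08) were called lower in clone A2, the latter among chromosome 22 neighbours with a median of -0.55.

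Of 35 genes for the modification and secretion of collagen, 0 were called higher and 3 lower in clone A1 (8.57%) and 0 and 6 in clone A2 (17.1%), near the shares of all genes. LOXL1, a lysyl oxidase that crosslinks elastin and collagen, was at 8.999 and 8.674 CPM in WT, 5.92 and 5.51 in clone A1 and 5.09 and 4.39 in clone A2 (-0.63 ± 0.12 and -0.90 ± 0.12). CRTAP, part of the prolyl 3-hydroxylase complex, stood at -0.30 ± 0.07 and -0.37 ± 0.07, and PLOD3, a lysyl hydroxylase, at -0.42 ± 0.09 and -0.28 ± 0.09. PCOLCE, which enhances the cleavage of procollagen, was called lower in clone A2 (-0.48 ± 0.11, adjusted p 0.00676, and 0.0809 with the offset). With the regional offset 2 were called lower in clone A1 and 3 in clone A2. The block gave 1 higher and 4 lower in clone A1, and 1 and 9 in clone A2.

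Of 29 genes of matrix breakdown, 1 was called higher and 2 lower in clone A1 (10.3%) and 0 and 6 in clone A2 (20.7%). With the regional offset the counts were 0 and 2, and 0 and 3, where 5.27% and 9.83% of all genes were called. With the block they were 2 and 2, and 3 and 7. MMP14, the membrane-bound collagenase, fell from 15.7 and 14.3 CPM to 8.64 and 8.54 CPM in clone A1 and 9.80 and 9.78 CPM in clone A2 (-0.80 ± 0.11 and -0.61 ± 0.11), and TIMP1, a secreted inhibitor of matrix metalloproteinases, changed by -0.30 ± 0.08 and -0.42 ± 0.08. In clone A2 MMP15 (-0.49 ± 0.13) and MMP11 (-0.54 ± 0.13) were also called lower, the latter among chromosome 22 neighbours with a median of -0.43. PLAU, urokinase, was the gene called higher in clone A1 (0.63 ± 0.18, adjusted p 0.0456, and 0.0541 with the offset).

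Of 25 other matrix receptors and tetraspanins, 1 was called higher and 2 lower in clone A1 (12.0% of the list) and 1 and 4 in clone A2 (20%). With the block the counts were 1 and 4, and 1 and 5. CD44, the hyaluronan receptor, fell from 10.5 and 10.2 CPM to 6.85 and 6.68 CPM in clone A1 and 7.74 and 7.32 CPM in clone A2. DTNA, a dystrobrevin of the dystroglycan complex, rose by 0.29 ± 0.09 and 0.36 ± 0.09, and the collagen receptor DDR2 was lower in clone A1 alone (-0.80 ± 0.23, adjusted p 0.0434, and 0.0743 with the regional offset). BCAM, a laminin alpha 5 receptor, and SGCE, a sarcoglycan, were called lower in clone A2 (-0.40 ± 0.12 and -0.26 ± 0.07), both without a call once the offset was used (0.161 and 0.951).

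Of 24 matricellular proteins 0 were called higher and 2 lower in clone A1 (8.33% of the list) and 1 and 4 in clone A2 (20.8%). With the block the counts were 3 and 4, and 2 and 6. SPARC, a collagen-binding secreted protein, was at 7.21 and 7.10 CPM in WT of experiments 15 and 16, 0.411 and 0.505 CPM in clone A1 and 3.63 and 2.71 CPM in clone A2, with changes of -3.96 ± 0.30 and -1.18 ± 0.23. It was also the gene of these lists called in clone A1 of experiments 10 and 11 (-2.17 ± 0.31). FBLN5 was lower in clone A1 (-0.50 ± 0.14), and in clone A2 SPOCK1 (-0.81 ± 0.20) and FBLN1 (-0.65 ± 0.09) were lower, the latter among chromosome 22 neighbours with a median of -0.55. TNC, tenascin C, was the gene called higher in clone A2 (0.21 ± 0.07, adjusted p 0.0394, and 0.198 with the regional offset).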

How the data were processed

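Spheroid RNA of the 10 libraries was prepared by the authors with a stranded mRNA kit, aligned to GRCh38 with HISAT2 and NCBI annotation (StringTie is named in the submitters' processing notes without a role), and reduced to genes with no count of 0. The authors deposited raw read counts, whole numbers, for each NCBI gene; the counting program and its strand setting are not given in the sources used here, so overlapping genes may share reads. The labels and the paper name different RNA extraction kits. No column of per-sample values was left unused.

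Symbols and positions came from the RefSeq gene table (GRCh38.p14; 13885 of 13920 identifiers matched), transcript lengths from MANE Select in GENCODE v44 (64 of 64 members), and the sequences between gene starts from the RefSeq promoter table, which holds 49 members. The counts entered 1 model in edgeR 4.0.16 under R 4.3.3 (TMM scaling, robust quasi-likelihood test) over 5 sets (WT and clone A1 in each experiment pair, clone A2 in the later), with 5 residual degrees of freedom and Benjamini-Hochberg adjustment over all genes. Intervals are 95% intervals from this fit, and CPM use TMM-scaled library sizes. Each set has 2 libraries from numbered experiments, which the study's methods call biological duplicates. Chi-square per degree of freedom within sets was 6.74 to 25.2, so no library was a copy of another. Counting error weighs most on the 5 members with under 30 counts in a library, and more on other scarce members such as COL4A3 than on abundant ones.

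The labels give an experiment number that WT and the clones share, so libraries of 1 number are paired by experiment; their deviations from the set means correlated at 0.0844 (experiments 10 and 11, WT with clone A1), 0.134 and 0.151 (experiments 15 and 16, WT with clone A1 and with clone A2) and 0.103 (both clones). The block was an alternative, with 3 residual degrees of freedom. The other alternatives were RLE normalization, DESeq2 1.42.0 (Wald test), a mean count of at least 10, the libraries of a pair alone, 3 groups over all libraries, an offset per library from the median of at least 20 genes within 10 Mb, and each library left out. On simulated data for clone A1 against WT (13920 genes) edgeR found 74 of 100 genes changed by 0.5 and 90 of 100 changed by 1 on the log2 scale, with 11 false calls. The simulation gave each gene the same spread in every set, whereas the noise of the real sets differed, so these rates need not hold here.

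The members and lists were chosen with earlier results of these data known. Values are given for SAMHD1, for up to 5 called members with the largest change in each direction of each comparison, for members called in both clones, for the 3 most abundant per kilobase in each family, and for up to 3 called genes in each direction of each list; other genes named, such as the partner chains of COL4A3, were chosen after their values were seen.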

Additional observations from a re-analysis of the deposited data

Results flagged for a closer look

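In groups of 4 libraries, 3 of 128 member and group combinations had a library apart from the other 3 by Dixon's criterion. Chance gives about 1 in 20 where all libraries are alike. These groups join both experiment pairs, which differed, so that rate need not hold here. COL4A4 was at 6.65 CPM in WT of experiment 16 against 3.45 to 3.86 CPM in the other WT libraries. In WT of experiment 11 LAMB1 was at 107 CPM against 132 to 135 CPM, and LAMB2 at 142 CPM against 96.3 to 98.1 CPM. By the interaction in edgeR, clone A1 stood at another distance from WT in the later experiments for COL3A1 (-1.24), COL4A3 (1.39), COL4A4 (1.24), ITGA6 (0.47), ITGA7 (0.63), NID1 (-0.38) and LAMC3 (1.00) on the log2 scale. Clone A2 differed from clone A1 for LAMA2 (-0.83) and COL14A1 (-0.52). The low levels of ESR1, EPCAM and CDH1 beside that of VIM in all 10 libraries, given above, set the labelled line apart from its markers and bear on every comparison alike.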

How the results depend on the processing

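Called pairs of gene and comparison were recalculated singly for the 78 that the naming rule takes, which leaves out, for example, COL26A1, COL25A1 and NID2 in clone A2. Of their 1200 values 1020 kept direction and call, 179 kept the direction and lost the call, and 1 turned: NID1 in clone A1, to 0.00879 with the regional offset. Under RLE normalization, DESeq2 and the filter on mean counts, counts of called members stayed within 1.5 times, except in clone A1 of experiments 10 and 11, where DESeq2 gave 1 and edgeR 0. With 3 groups over all libraries the counts were 0 for clone A1, 2 for clone A2 and 0 between the clones. Pair libraries alone gave 7 between the clones. The replicate block gave 9 between the clones, 5 for clone A1 in experiments 10 and 11 and 12 for the interaction. It moved no other count over the 64 members by more than 1.5 times. Counts of single families and lists moved more, such as integrins in clone A1 (2 to 4). Calls over all genes in clone A1 went from 1147 to 2411. For comparisons between the pairs the block is not given. With a block in each pair they set single experiments, not the pairs, against each other. With 1 library left out, called members ranged from 6 to 21 for clone A1, 12 to 24 for clone A2, 0 to 7 between the clones, 0 to 11 for clone A1 in experiments 10 and 11, 1 to 15 for the interaction, 10 to 25 for WT between pairs and 25 to 33 for clone A1 between pairs. The calls over all genes shifted in these fits as well. The cause of these shifts was not tested, beyond fewer libraries. Each set has 2 libraries, so p-values rest on a spread estimated over all sets of the fit, with sharing between genes. They do not measure the spread of the compared libraries alone, and a clone cannot be told apart from the knockout.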
